A study of Arabidopsis thaliana with 8 samples.

Results

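The rows described here are the brightest of the array that name several genes. A row was taken when its platform annotation lists 2 or more genes and its mean deposited signal over all 8 samples was 2 or more, which held for 30 of 870 multi-gene rows and of 3439 rows in all. The signals come from a study of wild-type Arabidopsis thaliana plants of ecotype Columbia-0, a standard laboratory strain of thale cress. It set 4 samples of total RNA from 4-week-old plants against 4 samples from 1-week-old plants, and the labels give the same genotype for both ages and no treatment. Neither the organs taken nor separate plants behind the samples are stated in the labels, so p-values here reflect the scatter of these samples alone, which may be technical. The rows were chosen by their mean deposited signal, so levels and ranks are described without a test. That mean follows the brighter age, so a row bright at 1 age only could enter through that age, and the choice of rows is not independent of the difference between the ages.

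An array spot reports the RNA that binds to it. Where a spot's sequence resembles several genes, as in families of paralogs or among genes that lie side by side, its signal cannot be given to one of them. Each row is therefore called by all the genes of its annotation. The 30 rows list 71 genes, with 2 genes in 20 rows, 3 genes in 9 rows and 4 genes in 1 row. All 71 were found in the reference gene table. The unit of the signals is arbitrary, and brightness also depends on the spotted sequence, so the order of 2 rows by signal is not an order of transcript amounts. Fewer cells of a type and less RNA per cell cannot be told apart in RNA of whole samples.

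Across the array the summed signal of a sample ran from 3070 to 3374, and a sample had 11.3% to 13.6% of its values listed at 0. The 30 rows made up 10.8% to 11.8% of the summed signal at 4 weeks, against 13.0% to 14.4% at 1 week. The same signals chose these rows. The row of AT4G22850 and AT4G12000 alone averaged 52.7 at 4 weeks and 92.6 at 1 week. No sample of these rows was at 0. Of the 6 root, 11 seed and 8 flower marker genes listed for a check of the tissue, none is named in any row, so the markers give no check of the organs sampled. The annotation used names no gene for 1877 of the 3439 rows. Samples 1 and 2 of each age resembled each other, as did samples 3 and 4, and this split also runs through these rows, as described below.

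The comparison of the ages asked which of these bright rows differed between 4-week-old and 1-week-old plants. Of the 28 rows that could be tested, 5 rose at 4 weeks, 11 fell and 12 did not pass a limma adjusted p of 0.05. Over all 2924 tested rows of the array, 25.3% rose and 20.4% fell, 45.7% in all. Nothing is read from the counts of bright rows against these shares, because many of the rows passed the threshold through their brighter age. Of the 14 tested rows with a mean of 2 or more in each age, 3 rose, 2 fell and 9 did not pass. Of the 12 rows under 2 at 4 weeks, 9 fell and 3 did not pass, and both rows under 2 at 1 week rose. The changes of these rows, given row by row below, are not independent of the choice by brightness. Among the 139 other rows with a mean signal of 2 or more, which name 1 gene or none, 40.3% rose and 20.1% fell. The median log2 difference was −0.28 over the 28 rows, 0.23 over those 139 rows and 0.16 over all tested rows. The samples of the ages did not overlap in 20 of the 28 rows, 8 of them among the 14 rows that were bright at both ages. Over all tested rows the share without overlap was 46.7%. These shares and medians are descriptions that the choice by brightness bears on, and no test of the difference between the sets of rows was made.

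The division into rises and falls depended on the scaling at the bright end of the array. The differences and folds given here are those fitted on quantile-normalized log2 signals. On the values as deposited, 3 of the 28 rows rose and 16 fell, and after median centring 3 rose and 17 fell. Of all tested rows, 28.0% rose and 20.0% fell as deposited, and 24.8% rose and 21.4% fell after median centring. In 27 of the 28 rows the log2 difference was lower as deposited than after quantile normalization, with a median shift of −0.13 over the 28 rows and of 0.05 over all tested rows. The largest shift was −0.77. Both values are given below wherever they differ in call or direction.

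**Figure D1:**
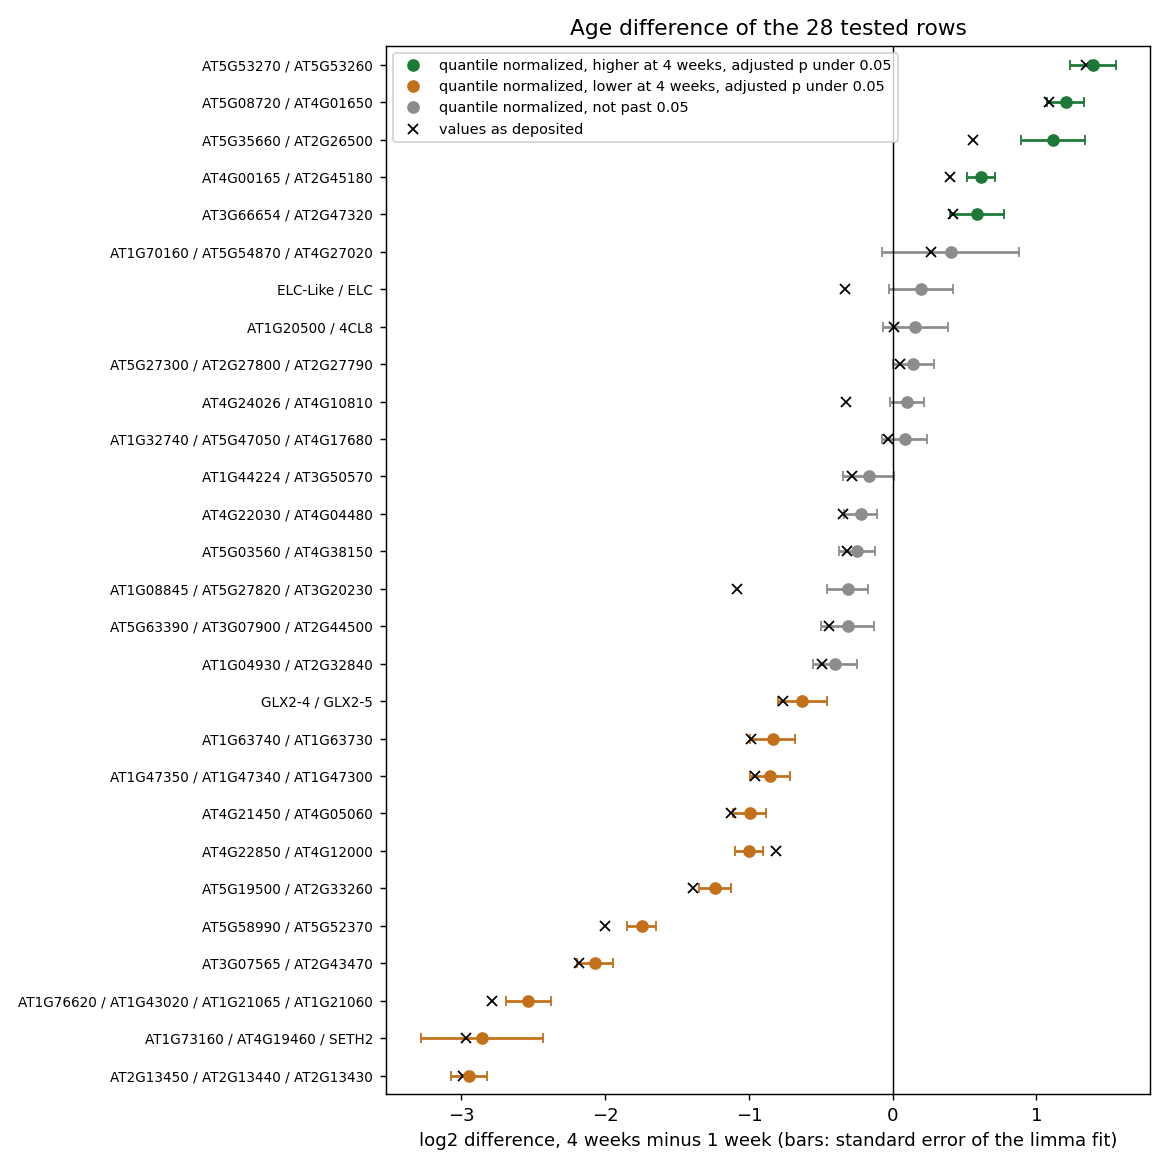
Log2 difference (4 weeks minus 1 week) of the 28 tested rows, sorted from the largest rise to the largest fall. Circles with standard error bars are from the limma fit on quantile-normalized signals (green, rose; orange, fell; grey, did not pass an adjusted p of 0.05), and crosses are the differences of the values as deposited. Fitted values run from 1.39 to −2.95, and the row of AT1G08845, AT5G27820 and AT3G20230 has the cross farthest from its circle.

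Each row at the ceiling of the scale names a gene linked to the cell wall, but which of its genes a row measured was not tested. The row of AT5G51520 and AT4G25250, a pair of genes of the invertase and pectin methylesterase inhibitor family, stood at 100 in all 4 samples of both ages. The row of CSLC12, AT4G07950 and AT4G07940, which are neighbours on their chromosome, also stood at 100 in all 8 samples. CSLC12 belongs to the cellulose synthase-like C family, whose members make the glucan backbone of the wall polymer xyloglucan. A signal at the ceiling gives only a lower bound at both ages, so these 2 rows were not tested and no fold is given for them. They alone made up 6.09% to 6.51% of the summed signal of a sample at 4 weeks and 5.93% to 6.30% at 1 week.

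The other rows of wall and glycosylation genes were far dimmer. The row of AT1G73160, AT4G19460 and SETH2 lists glycosyltransferase genes, among them SETH2, whose product acts in the first step of the synthesis of glycosylphosphatidylinositol anchors. Its signal was 0.536, 0.418, 0.933 and 1.02 in samples 1 to 4 of 4-week-old plants, against 2.86, 3.43, 9.23 and 8.88 in those of 1-week-old plants. Every sample of 4-week-old plants lay below every sample of 1-week-old plants, and within each age samples 3 and 4 lay above samples 1 and 2. Its mean was 0.727 ± 0.294 at 4 weeks and 6.10 ± 3.42 at 1 week (SD, n = 4 each), and the row fell 7.25-fold (log2 difference −2.86 with an SE of 0.43, limma adjusted p = 0.000996). It passed the signal threshold through 1 week, so this fall is not independent of that choice. The row of AT5G63390, AT3G07900 and AT2G44500, genes of the O-fucosyltransferase family, averaged 2.38 ± 0.103 at 4 weeks and 3.28 ± 0.604 at 1 week (SD, n = 4 each). It did not pass the test (log2 difference −0.31 with an SE of 0.18, limma adjusted p = 0.194), although the samples of the ages did not overlap, and its difference as deposited was −0.44 (limma adjusted p = 0.0380).

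Genes of membrane traffic gave the brightest rows below the ceiling. The row of AT4G22850 and AT4G12000, of the SNARE-associated Golgi protein family, reached 52.5, 49.0, 56.8 and 52.3 in samples 1 to 4 of 4-week-old plants, against 97.1, 96.6, 90.5 and 86.0 in those of 1-week-old plants. The ages did not overlap, and the row fell (log2 difference −1.002 with an SE of 0.10, limma adjusted p = 9.63e-05).

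ELC-Like and ELC, ELC being a part of the ESCRT-I complex that sorts ubiquitinated membrane proteins, share the next row. Its signal was 30.7, 29.2, 20.6 and 20.2 in samples 1 to 4 of 4-week-old plants, against 41.0, 38.6, 24.6 and 24.1 in those of 1-week-old plants. Samples 1 and 2 lay above samples 3 and 4 at both ages, and the ages overlapped. The difference did not pass (log2 difference 0.20 with an SE of 0.22, limma adjusted p = 0.492), and its direction turned with the scaling, to −0.33 (limma adjusted p = 0.281) on the values as deposited. The row of AT4G21450 and AT4G05060, genes related to the VAP proteins that tie the endoplasmic reticulum to other membranes, had 1.37, 1.44, 1.45 and 1.47 at 4 weeks, against 2.60, 2.81, 3.58 and 3.60 at 1 week. It fell, without overlap between the ages (log2 difference −0.996 with an SE of 0.11, limma adjusted p = 0.000219). Of the 3 membrane traffic rows, 2 therefore fell and 1 did not pass, while 20.4% of all tested rows fell. The class was given after the rows were seen, so nothing about the function is read from this count.

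The row of AT5G35660 and AT2G26500, which rose, is the only bright row that names a gene of the photosynthesis lists. It includes the gene for PetM, a small subunit of the cytochrome b6f complex that passes electrons between the photosystems. Its signal was 9.97, 11.4, 9.36 and 9.42 in samples 1 to 4 of 4-week-old plants, against 5.13, 4.84, 9.17 and 9.32 in those of 1-week-old plants. At 4 weeks the samples lay close together, while at 1 week samples 1 and 2 had about the same low signal and samples 3 and 4 came up to just under the lowest 4-week sample. The fitted difference was a rise (log2 difference 1.11 with an SE of 0.22, limma adjusted p = 0.00428). Taken separately, samples 1 and 2 gave 1.68 and samples 3 and 4 gave 0.55. On the values as deposited the difference was 0.56 (limma adjusted p = 0.0911) and did not pass, nor did it after median centring or with samples 1 and 2, and 3 and 4, averaged.

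The row of AT5G08720 and AT4G01650, which names no listed gene, holds genes of the polyketide cyclase and lipid transport superfamily. AT5G08720, known as HCF145, is needed to keep the plastid transcript of a photosystem I core protein stable. The signal was 3.29, 3.27, 3.29 and 3.44 in samples 1 to 4 of 4-week-old plants, against 1.75, 1.67, 1.43 and 1.45 in those of 1-week-old plants. The row rose 2.31-fold, with no overlap between the ages (log2 difference 1.21 with an SE of 0.13, limma adjusted p = 0.000164). Its call held in all 16 alternatives that were run. It passed the signal threshold through its brighter age, 4 weeks.

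Genes of photosynthesis are sparsely named in the annotation used, which gives no gene for 1877 of the 3439 rows. Of the 169 rows of mean signal 2 or more, 102 have no gene named. The scarcity of these genes among the bright rows therefore says nothing of their levels or of what the array carries. Of the 21 light-harvesting genes listed, some are named in 2 rows in all, 1 of them a multi-gene row, and the list of Rubisco and its activase reaches only 2 rows, both of AT1G73110 and RCA, the activase gene. Of 171 genes on 13 lists of photosynthesis, chloroplast upkeep and tissue markers, only AT2G26500 is named in the bright rows described here. The multi-gene row of LHCB4.1, LHCB4.2 and LHCB4.3, antenna proteins of photosystem II, had a mean of 0.512 ± 0.0824 at 4 weeks and 0.336 ± 0.0628 at 1 week (SD, n = 4 each). The row of ATPC2 and ATPC1, for the gamma subunit of the chloroplast ATP synthase, had 0.756 ± 0.0822 at 4 weeks and 1.17 ± 0.0877 at 1 week. Over all lists, 8 multi-gene rows name a listed gene, and 3 of them rose, 1 fell and 4 did not pass or were not tested. Of all tested rows, 25.3% rose and 20.4% fell.

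The row of AT1G08845, AT5G27820 and AT3G20230 names genes of the L18 family of ribosomal proteins. Its signal was 9.97, 8.94, 9.27 and 9.03 in samples 1 to 4 of 4-week-old plants, against 25.0, 22.5, 16.7 and 16.1 in those of 1-week-old plants. The ages did not overlap, and samples 1 and 2 lay above samples 3 and 4 at 1 week. The quantile-normalized difference did not pass (log2 difference −0.31 with an SE of 0.14, limma adjusted p = 0.105), but the values as deposited gave −1.09 (limma adjusted p = 0.00104). It also passed after median centring, without sample 1 of the 4-week-old plants (limma adjusted p = 0.0396), and with the sample number as a block (limma adjusted p = 0.0344), but not with the averaged sample pairs as blocks (limma adjusted p = 0.263). The fitted value ran from −1.14 to −0.23 over the alternatives.

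Rows of secreted, defence and seed proteins moved in both directions. AT4G00165 and AT2G45180 belong to the superfamily of lipid transfer proteins, small secreted proteins with a pocket for lipids. Their row had signals of 7.04, 7.20, 6.72 and 7.92 in samples 1 to 4 of 4-week-old plants, against 5.22, 5.36, 5.64 and 5.66 in those of 1-week-old plants. Every 4-week sample lay above every 1-week sample, and the row rose 1.53-fold (log2 difference 0.61 with an SE of 0.10, limma adjusted p = 0.00151), with a smaller difference of 0.40 (limma adjusted p = 0.0133) as deposited. AT5G53270 and AT5G53260 are neighbouring genes annotated as seed maturation proteins. Their row had 4.91, 4.38, 5.15 and 4.61 in samples 1 to 4 of 4-week-old plants, against 2.16, 1.96, 1.77 and 1.64 in those of 1-week-old plants. It rose 2.63-fold without overlap (log2 difference 1.39 with an SE of 0.16, limma adjusted p = 0.000219), the largest of the 5 rises, and held its call in all 16 alternatives. AT1G63740 and AT1G63730, neighbouring genes for immune receptors of the TIR-NBS-LRR class, share a row that averaged 1.38 ± 0.0806 at 4 weeks and 2.75 ± 0.362 at 1 week (SD, n = 4 each). It fell (log2 difference −0.83 with an SE of 0.16, limma adjusted p = 0.00326).

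The row of AT3G66654 and AT2G47320 names genes for cyclophilins, which speed the folding of proteins at proline bonds. Its 4-week samples lay at 5.15, 5.28, 4.61 and 4.19, and its 1-week samples at 4.34, 3.92, 3.18 and 3.05, with an overlap of 1 sample on each side. It rose (log2 difference 0.58 with an SE of 0.19, limma adjusted p = 0.0345), but its call was lost in 10 of the 16 alternatives, among them the values as deposited, where the difference was 0.42 (limma adjusted p = 0.0517). Without sample 1, 2 or 3 of the 4-week-old plants, or sample 3 or 4 of the 1-week-old plants, its adjusted p ran from 0.0559 to 0.0867 by limma.

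Genes of RNA handling gave 3 rows. The row of AT2G13450, AT2G13440 and AT2G13430 lists 3 neighbouring genes, of which AT2G13440 belongs to the GidA family of tRNA-modifying proteins. Its signal was 0.624, 0.625, 0.592 and 0.503 in samples 1 to 4 of 4-week-old plants, against 4.46, 4.10, 5.11 and 4.92 in those of 1-week-old plants. This was the largest fall among the 30 rows, 7.72-fold without overlap between the ages (log2 difference −2.95 with an SE of 0.13, limma adjusted p = 2.13e-06), and its call held in all 16 alternatives. With a mean of 0.586 at 4 weeks and 4.65 at 1 week, the row passed the signal threshold through 1 week. Its fall is therefore not independent of that choice. The other 2 rows name genes of the pentatricopeptide repeat family, whose proteins bind organelle RNA. The row of AT5G27300, AT2G27800 and AT2G27790 had 2.03, 2.49, 2.20 and 2.28 in samples 1 to 4 of 4-week-old plants, against 2.28, 2.41, 1.93 and 2.06 in those of 1-week-old plants. The ages overlapped and the difference did not pass (log2 difference 0.14 with an SE of 0.14, limma adjusted p = 0.436). The row of AT5G03560 and AT4G38150 averaged 1.86 ± 0.137 at 4 weeks and 2.32 ± 0.129 at 1 week (SD, n = 4 each), without overlap (log2 difference −0.25 with an SE of 0.12, limma adjusted p = 0.138). Its difference as deposited was −0.32 (limma adjusted p = 0.0374).

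Genes for parts of ubiquitin ligases, which mark proteins for breakdown, are named in 3 rows. The row that fell was that of AT1G47350, AT1G47340 and AT1G47300, F-box genes, some of them neighbours. It had 1.60, 1.5, 1.51 and 1.30 in samples 1 to 4 of 4-week-old plants, against 2.64, 2.37, 3.51 and 3.03 in those of 1-week-old plants. The ages did not overlap (log2 difference −0.85 with an SE of 0.14, limma adjusted p = 0.00147). The row of AT4G22030, an F-box gene, and AT4G04480 had 2.86, 2.82, 2.77 and 2.83 at 4 weeks, against 3.83, 3.76, 3.34 and 3.44 at 1 week. It did not pass (log2 difference −0.22 with an SE of 0.11, limma adjusted p = 0.138), while the difference as deposited was −0.35 (limma adjusted p = 0.0208). Relative to their mean, its 4-week samples had the narrowest spread of the 28 rows at that age. The row of AT1G32740, AT5G47050 and AT4G17680, a family of RING-type proteins first described as binding S-ribonucleases, averaged 2.12 ± 0.243 at 4 weeks and 2.18 ± 0.365 at 1 week (SD, n = 4 each). It did not pass (log2 difference 0.08 with an SE of 0.16, limma adjusted p = 0.687). The sign of that difference turned on the values as deposited, to −0.03.

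Genes for enzymes and transporters are named in 3 rows. The row of AT5G19500 and AT2G33260, genes of a family of tryptophan and tyrosine permeases, had signals of 1.44, 1.42, 1.53 and 1.54 at 4 weeks, against 4.34, 3.88, 3.61 and 3.73 at 1 week. It fell 2.36-fold (log2 difference −1.24 with an SE of 0.11, limma adjusted p = 7.36e-05). GLX2-4 and GLX2-5 encode glyoxalase II enzymes, a class that acts in the removal of reactive aldehydes. Their row had 2.35, 2.22, 1.74 and 1.62 in samples 1 to 4 of 4-week-old plants, against 3.52, 3.33, 3.35 and 3.14 in those of 1-week-old plants. The ages did not overlap and the row fell (log2 difference −0.63 with an SE of 0.17, limma adjusted p = 0.0168). The row of AT1G20500 and 4CL8, genes of the 4-coumarate-CoA ligase-like family, averaged 2.15 ± 0.499 at 4 weeks and 2.17 ± 0.668 at 1 week (SD, n = 4 each). It did not pass (log2 difference 0.16 with an SE of 0.23, limma adjusted p = 0.587). Its difference was 0.01 as deposited and −0.04 after median centring.

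For 5 rows no function of the genes is given here. The row of AT1G76620, AT1G43020, AT1G21065 and AT1G21060 had 1.16, 1.30, 1.66 and 1.73 in samples 1 to 4 of 4-week-old plants, against 7.79, 9.50, 11.7 and 11.3 in those of 1-week-old plants. It fell 5.80-fold (log2 difference −2.54 with an SE of 0.16, limma adjusted p = 1.13e-05). The row of AT3G07565 and AT2G43470 had 1.05, 0.922, 0.912 and 0.787 in samples 1 to 4 of 4-week-old plants, against 4.02, 3.88, 4.38 and 4.34 in those of 1-week-old plants. It fell 4.20-fold (log2 difference −2.07 with an SE of 0.13, limma adjusted p = 1.13e-05). The ages did not overlap in either of these rows. Both had a mean under 2 at 4 weeks and passed the signal threshold through 1 week, so these falls are not independent of that choice. The row of AT5G58990 and AT5G52370 had 2.23, 2.40, 2.57 and 2.86 in samples 1 to 4 of 4-week-old plants, against 9.02, 9.70, 10.1 and 11.4 in those of 1-week-old plants. It fell 3.36-fold (log2 difference −1.75 with an SE of 0.10, limma adjusted p = 8.63e-06). Here too the ages were separate, and the calls of all 3 rows held in all 16 alternatives.

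The row of AT4G24026 and AT4G10810 had 7.84, 7.07, 6.72 and 7.04 in samples 1 to 4 of 4-week-old plants, against 9.28, 9.10, 8.84 and 8.65 in those of 1-week-old plants. Its samples did not overlap and the deposited values were lower at 4 weeks (−0.33, limma adjusted p = 0.0279), while the quantile-normalized difference had the other sign and did not pass (log2 difference 0.10 with an SE of 0.12, limma adjusted p = 0.525). The row of AT1G70160, AT5G54870 and AT4G27020 had 1.87, 1.76, 5.24 and 5.16 in samples 1 to 4 of 4-week-old plants, against 1.53, 1.66, 4.33 and 3.88 in those of 1-week-old plants. The ages overlapped, and the difference did not pass (log2 difference 0.40 with an SE of 0.48, limma adjusted p = 0.508), but did with the sample number as a block (limma adjusted p = 0.0249). With the averaged sample pairs as blocks it did not pass (limma adjusted p = 0.176). The 2 rows of proline-rich proteins, those of AT1G04930 with AT2G32840 and of AT1G44224 with AT3G50570, did not pass. The first had signals of 1.55, 1.53, 1.94 and 1.97 in samples 1 to 4 of 4-week-old plants, against 2.09, 1.94, 3.24 and 2.69 in those of 1-week-old plants. The second had 1.42, 1.58, 2.11 and 2.16 in samples 1 to 4 of 4-week-old plants, against 1.76, 1.81, 2.47 and 2.88 in those of 1-week-old plants. In both, the ages overlapped. The log2 difference of the first was −0.40 (SE 0.15, limma adjusted p = 0.0627, 0.0245 with the sample number as a block and 0.173 with averaged pairs as blocks), and that of the second −0.17 (SE 0.17, limma adjusted p = 0.453). The first also passed after median centring (−0.54, limma adjusted p = 0.0417) and without the lowest tercile of rows (limma adjusted p = 0.0474). Without sample 2 of the 1-week-old plants it passed too (limma adjusted p = 0.0436).

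**Figure D2:**
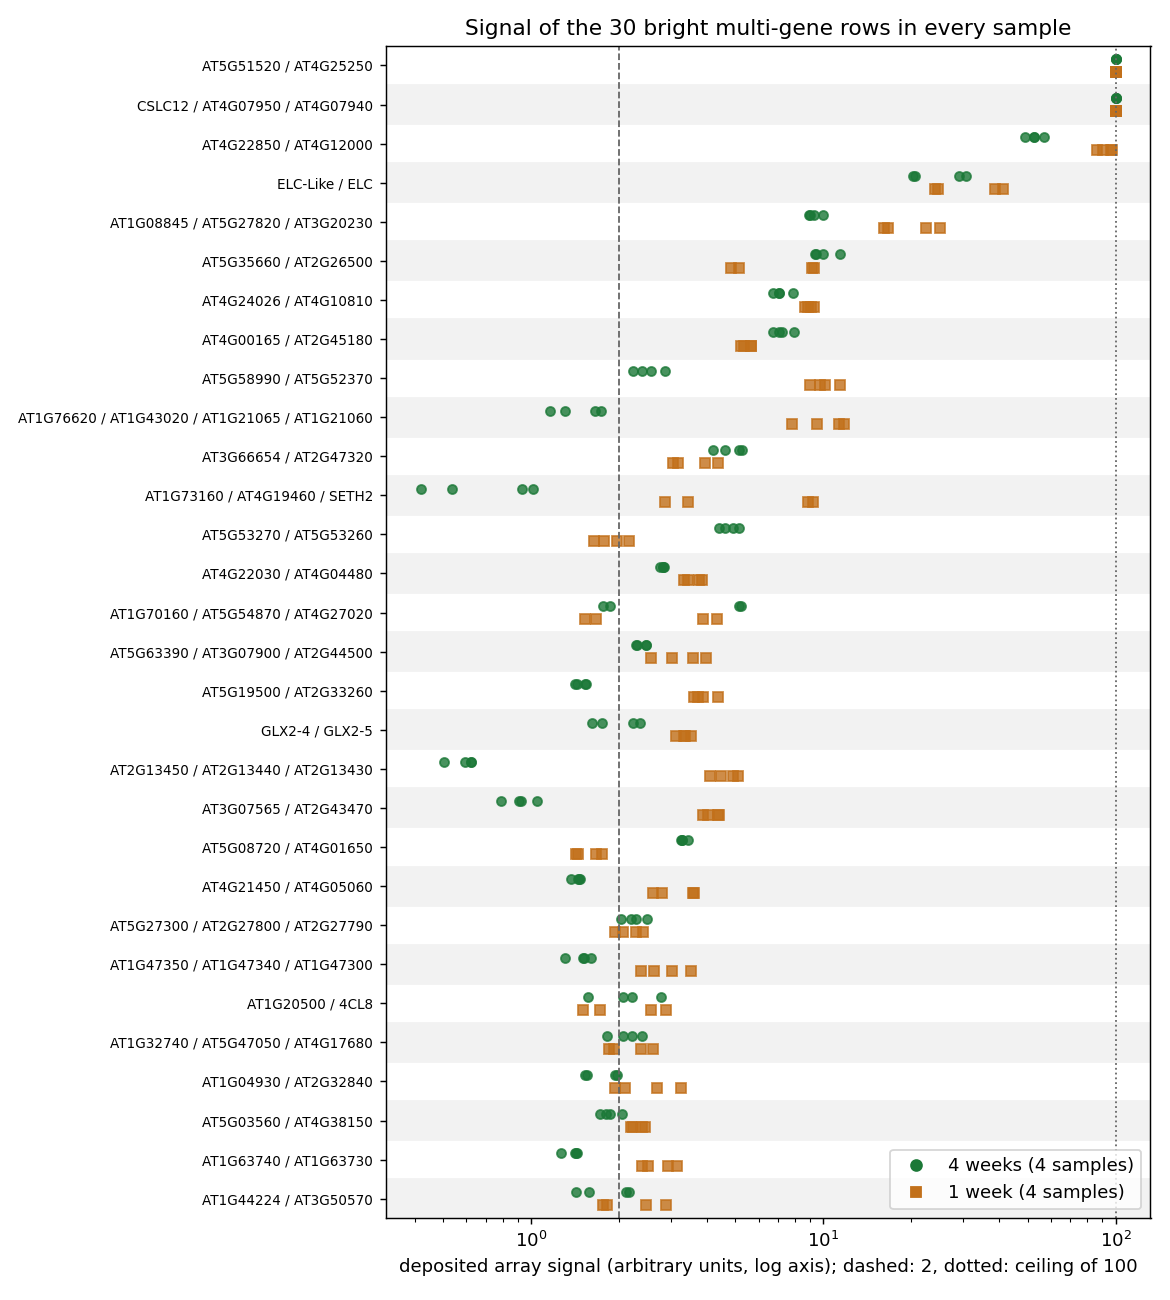
Deposited signal (arbitrary units, log axis) of the 30 rows in every sample, ordered by mean signal, with 4-week samples as green circles above the 1-week samples as orange squares. The dashed line marks the mean signal of 2 that chose the rows and the dotted line the ceiling of 100, where all 8 samples of the upper 2 rows lie.

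The rows were not all bright at both ages. The mean was 2 or more in each age taken alone for 16 of the 30 rows. It was under 2 at 4 weeks in 12 rows and under 2 at 1 week in 2 rows, those of AT5G53270 with AT5G53260 and of AT5G08720 with AT4G01650. The mean over all samples was 10 or more in 5 rows, 5 or more in 10 rows, and between 2 and 3 in 15 rows. Just inside the threshold lay the row of AT1G44224 and AT3G50570 with a mean of 2.03 and that of AT1G63740 and AT1G63730 with 2.06. Just outside lay the row of AT2G34540 and AT2G34530 with 1.99, made up of 0.294 at 4 weeks and 3.69 at 1 week, and that of AT4G05630 and AT4G05620 with 1.93.

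Ranks among all 3439 rows describe the rows' order at each age. By mean signal, 17 of the 30 rows stood lower in the order at 4 weeks than at 1 week, 11 stood higher and the 2 ceiling rows shared the top at both ages. The row of AT2G13450, AT2G13440 and AT2G13430 ranked 1222 at 4 weeks and 67 at 1 week. The row of AT1G73160, AT4G19460 and SETH2 ranked 931 and 53, and that of AT3G07565 and AT2G43470 ranked 651 and 78, each at 4 weeks and 1 week. In the other direction, the row of AT5G08720 and AT4G01650 ranked 88 at 4 weeks and 277 at 1 week, and that of AT5G53270 and AT5G53260 ranked 59 and 202. At the top the order moved little. The row of AT4G22850 and AT4G12000 ranked 8 at 4 weeks and 4 at 1 week, and that of ELC-Like and ELC ranked 10 and 14. A rank among the first 100 at both ages was held by 9 rows, the ceiling rows included.

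**Figure D3:**
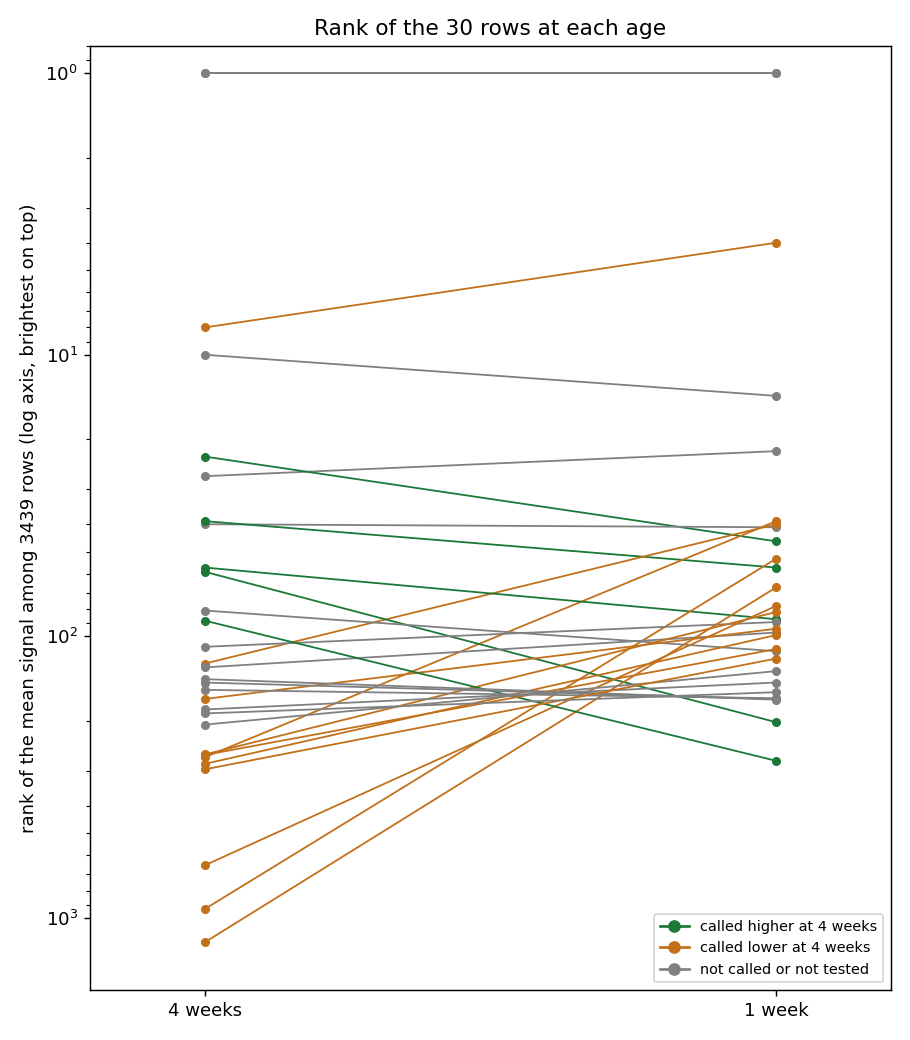
Rank of the mean signal of the 30 rows among 3439 rows (log axis, the brightest on top), with 4 weeks on the left and 1 week on the right. Orange lines are rows that fell, green lines rows that rose and grey lines rows that did not pass or were not tested. The lowest rank is 1222 at 4 weeks and 277 at 1 week.

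Within an age, samples 1 and 2 were set apart from samples 3 and 4 in many of the rows. In 26 of the 28 tested rows, samples 1 and 2 of the 1-week-old plants lay entirely above or entirely below samples 3 and 4, and the same held for the 4-week-old plants in 18 rows. The split was common on the whole array too, with 2008 of all 2924 tested rows at 1 week and 1798 at 4 weeks. In 11 of the 28 rows (39.3%) the split had the same direction at both ages, against 36.6% of all tested rows. Samples 3 and 4 were the higher ones in 8 of the 11. One such row was that of AT1G70160, AT5G54870 and AT4G27020, where samples 3 and 4 averaged 2.87-fold samples 1 and 2 at 4 weeks and 2.58-fold at 1 week. In the row of AT1G73160, AT4G19460 and SETH2 these ratios were 2.04 and 2.88. In the row of AT5G35660 and AT2G26500 they were 0.877 at 4 weeks and 1.85 at 1 week, so that the split ran in opposite directions. No label says what the sample numbers stand for. The median coefficient of variation was 9.09% at 4 weeks and 14.8% at 1 week over the 28 rows.

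**Figure D4:**
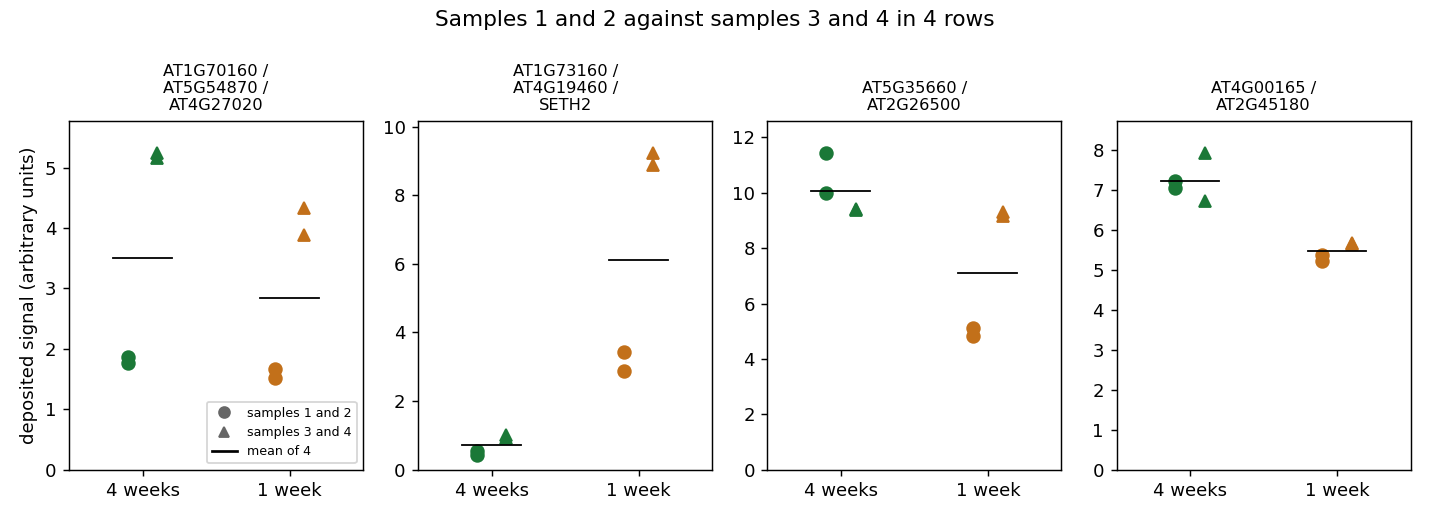
Deposited signal (arbitrary units, axes from 0) of 4 rows by age, with samples 1 and 2 as circles, samples 3 and 4 as triangles and the mean of 4 as a bar. In the row of AT1G70160, AT5G54870 and AT4G27020 the sample pairs are farther apart than the ages, whereas in the row of AT4G00165 and AT2G45180 every 4-week sample lies above every 1-week sample.

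The difference between the ages had 1 sign in samples 1 and 2 and in samples 3 and 4, each pair taken separately, for 26 of the 28 rows, 9 of them higher and 17 lower at 4 weeks. With samples 1 and 2, and samples 3 and 4, averaged to 2 values per age, 2 rows rose and 7 fell. The rows that kept their call there were those of AT5G53270 with AT5G53260 and of AT5G08720 with AT4G01650 among the rises, and among the falls those of AT4G22850, AT5G58990, AT1G76620, AT1G73160, AT5G19500, AT2G13450 and AT3G07565 with the genes named beside them above. These 9 rows passed in all 16 alternatives. The alternatives refitted the same chosen rows on the same samples, so passing is not independent of the choice by brightness. Except for the rows of AT4G22850 and AT5G58990, each of the 9 had a mean under 2 at 1 of the ages. The other 7 called rows lost their call with averaged pairs, with limma adjusted p-values between 0.0544 for AT4G21450 with AT4G05060 and 0.234 for AT3G66654 with AT2G47320.

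What the genes of a row share was read from the gene table. In 7 of the 30 rows (23.3%) at least 2 of the genes are neighbours on a chromosome, against 104 of all 870 multi-gene rows (12.0%). In 4 rows all genes are neighbours, among them the ceiling row of CSLC12 and the row of AT2G13450, AT2G13440 and AT2G13430.

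Other rows of the array that name the same genes were dimmer, which the choice of rows largely required. Any multi-gene row at or above the signal threshold was itself among the 30, so nothing is read from that contrast. For 10 of the 30 rows there were 11 other rows that name a shared gene, and their means ran from 0 to 0.985. A row listing CSLC12, AT4G07950 and AT4G07940 together with AT4G07990 had a mean of 0.153 ± 0.0657 at 4 weeks and 0.0949 ± 0.0905 at 1 week (SD, n = 4 each), although the row of the first 3 genes alone stood at the ceiling. Another row, of CSLC12 with CSLC5, CSLC04 and ATCSLC08, averaged 0.899 ± 0.154 at 4 weeks and 0.547 ± 0.0233 at 1 week. That row rose (log2 difference 0.69, SE 0.14, limma adjusted p = 0.00486). A row of AT4G22850 and AT4G12000 with AT1G12450 averaged 0.414 ± 0.0732 at 4 weeks and 0.140 ± 0.0639 at 1 week, and it rose (log2 difference 1.49, SE 0.31, limma adjusted p = 0.00530), while the bright row of these genes fell. A second row of ELC-Like and ELC, which also lists AT2G38830, averaged 0.952 ± 0.0617 at 4 weeks and 0.842 ± 0.207 at 1 week. A row of AT1G76620 and AT1G21060 was listed at 0 in all 8 samples.

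For 2 of the rows a second row carried exactly the same annotation. The second row of AT4G22030 and AT4G04480 had a mean of 0.339 ± 0.0290 at 4 weeks and 0.737 ± 0.0312 at 1 week and fell (log2 difference −1.17, SE 0.09, limma adjusted p = 3.99e-05), a larger fall than the difference of the bright row. The second row of AT1G04930 and AT2G32840 averaged 0.695 ± 0.140 at 4 weeks and 1.28 ± 0.126 at 1 week and fell as well (log2 difference −0.87, SE 0.19, limma adjusted p = 0.00647). On the whole array, 93 pairs of rows shared an identical annotation of several genes. Where both rows of a pair were tested, the age difference had the same sign in 33 of 67 pairs. The brighter row of a pair was a median of 2.43-fold brighter over the 81 pairs whose dimmer row was above 0. Which of its listed genes a row measured was not tested.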

How the data were processed

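The deposited table holds 1 array intensity on a linear scale for each of 3439 rows in 4 samples of 4-week-old and 4 of 1-week-old plants. The sources used here do not say how the authors scanned and scaled these deposited intensities, and no column of other samples was present. The values are never below 0, and 2 rows stand at a ceiling of 100 in every sample. Rows were named from the platform annotation, and genes were matched by gene number to a reference table of the TAIR10.1 assembly, used for names and gene order only. No build is named for the array, and coordinates are left out. The members and lists were chosen with earlier results of these data known, and the functions of the rows were assigned from general knowledge after the rows were seen.

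After log2 transformation, with values of 0 treated as missing, signals were quantile normalized. The contrast of 4 weeks minus 1 week was fitted by limma 3.58.1 (lmFit, then eBayes; R 4.3.3), and p-values were adjusted by Benjamini-Hochberg over all 2924 rows that had 3 measured samples in each age. The 2 rows at the ceiling in all samples were left out. The threshold was an adjusted p of 0.05. The fit was tested on simulated data whose samples were drawn independently of each other. That test does not cover the likeness of samples 1 and 2, and of samples 3 and 4, in the real data. Standard errors and differences come from the fit, and signals with an SD are deposited values. Ranks, neighbours and counts were computed in Python 3.11.15. Precision is limited by the number of arrays.

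The fit has no block. As a check of pairing, the deviations of samples with 1 number from their own age means correlated at 0.425 to 0.527 in all 4 pairs. No label gives a pairing by number. Differently numbered samples gave 0.180 to 0.396 within samples 1 and 2 and within samples 3 and 4, and −0.419 to −0.351 between these pairs. Deviations from an age mean cancel out within that age, so high correlations for some samples force low ones for others. The check therefore does not establish a pairing by number. The blocked value is given where it changes a call.

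Rows given with full values were to be the 10 brightest, those at the ceiling, the 2 brightest of each function, the 8 largest non-overlapping rises and falls past the threshold, and the 2 on each side of the signal threshold, and the remaining rows are given by mean or difference. The 16 alternatives were the deposited values without normalization, centring on the median, a fit without the lowest tercile of rows, a pseudocount of 0.0777, leaving out each sample, a block by sample number, averaged sample pairs with and without a block, and leaving out rows at the ceiling.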

Additional observations from a re-analysis of the deposited data

Results flagged for a closer look

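Of 56 sets of 4 samples (28 rows at 2 ages), 2 held a sample set far apart from the other 3 of its age. Chance alone sets apart about 1 in 20 where the 4 values are independent. Samples 1 and 2, and samples 3 and 4, were alike here, so that rate may not hold for these sets. In the row of AT5G08720 and AT4G01650, sample 4 of the 4-week-old plants had a signal of 3.44, against 3.27 to 3.29 in the other 3. In the row of AT1G63740 and AT1G63730, sample 3 of the 4-week-old plants had 1.26, against 1.41 to 1.43. Both rows kept their direction and call without that sample.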

How the results depend on the processing

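Of 448 recomputed log2 differences of the 28 rows over 16 alternatives, 406 kept direction and call, 20 lost the call, 15 gained one and 7 changed sign. The sign changes came from scaling. As deposited and after median centring, the differences were −0.33 and −0.38 for ELC-Like with ELC, −0.33 and −0.38 for AT4G24026 with AT4G10810, and −0.0334 and −0.0839 for AT1G32740, AT5G47050 and AT4G17680. Median centring gave −0.0422 for AT1G20500 with 4CL8. The 5 rises became 3 as deposited, 3 after median centring, 2 where samples 1 and 2, and 3 and 4, were averaged, and 3 where those averages were also blocked. The 11 falls became 17 after median centring and 7 with averaged pairs. The 1337 calls over all rows became 400 with averaged pairs, which leaves 2 values per age, and 1061 where those averages were also blocked. Without any 1 sample, 4 to 5 rows rose and 11 to 12 fell, and 1072 to 1289 rows of the array were called. With the sample number as a replicate block, 6 rows rose, 13 fell and 1656 rows of the array were called. That block changed the call of 3 rows, which are given with the results, and no other, and none of the 3 passed with averaged pairs as blocks. A threshold of 1.5 or 3 in place of 2 would have chosen 55 or 15 rows, and a mean of 2 or more in each age 16. Rows at the ceiling limit what can be measured at the bright end, since any difference above 100 is not seen. The causes of these changes were not tested.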
